A study of Homo sapiens with 6 samples.

Results

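Selenoproteins carry selenocysteine, an amino acid that is written into the messenger RNA as UGA, a codon that otherwise ends translation. The genes described here are 10, of 11314 in the deposited table, chosen by name: SEPHS1, SEPHS2, SEPSECS, SECISBP2 and EEFSEC, which serve the synthesis and insertion of selenocysteine, and the selenoproteins SELENOF, SELENOK, SELENOS and SELENOT of the endoplasmic reticulum (ER) together with SELENOW. SELENOW is a cytosolic protein, so the ER heading covers only the first 4 of these selenoproteins. All 10 names had a row, and all 10 passed the filter on low values, a mean of at least 0.5 FPKM over the 6 libraries.

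Selenocysteine is made on its own transfer RNA. SEPHS2 activates selenide to selenophosphate, SEPSECS places the selenium on the charged transfer RNA, SECISBP2 binds the selenocysteine insertion element in the 3' untranslated region of selenoprotein messages, and EEFSEC brings the transfer RNA to the ribosome. The pathway is known in ferroptosis, a death by lipid peroxidation, because the peroxidase GPX4 is a selenoprotein, while SELENOF, SELENOK, SELENOS and SELENOT are known from protein folding, protein quality control and redox control in the ER.

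The samples were 6 poly(A) RNA libraries of SNU-668, an established human gastric cancer line, here an erastin-resistant derivative, in which erastin is a blocker of cystine import. By title, 3 libraries (RLS3-NC1 to RLS3-NC3) stand for the control hairpin and 3 (RLS3-SPIN1-1 to RLS3-SPIN1-3) for the hairpin shRNA-SPIN1, and all carry the resistance. The genotype entries state the reverse (WT where the title has SPIN1, SPIN1 knockdown where it has NC), the design text names shRNA-ALKBH3, and RLS3 is not explained. Groups follow the titles and are called SPIN1 libraries and NC libraries, numbered 1 to 3 as titled, and "higher" and "lower" refer to the SPIN1 libraries relative to the NC libraries. No label says that replicates were separate cultures, and p-values therefore measure only the spread between these libraries, which may be technical.

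Median FPKM (fragments divided by gene length and by the library's mapped fragments) was 4.91, 4.99 and 5.12 in NC libraries 1 to 3. It was 5.16, 5.19 and 5.49 in SPIN1 libraries 1 to 3, all above the NC libraries. Some calls changed with median scaling, as given below. SPIN1 itself, the histone reader the hairpin is named for, was at 0.322, 6.18 and 7.97 FPKM in NC libraries 1 to 3 and at 0.324, 0.629 and 2.49 in SPIN1 libraries 1 to 3. NC library 1 thus stood with the other group, SPIN1 did not check the titles (limma adjusted p = 0.307), and results are given below with and without that library where it matters. Of the epithelial markers, KRT8, KRT18 and EPCAM had a row, with a summed level of 95.4 to 114 FPKM in the NC libraries and 140 to 241 FPKM in the SPIN1 libraries, nearly all of it from the keratins. EPCAM was at 0.313 to 1.44 FPKM, and CDH1 and KRT19 had no row. Of 6 markers of fibroblasts, leukocytes and endothelium only DCN had a row, at 1.60 to 2.21 FPKM against 3.47 to 5.66 FPKM. Every gene in the deposited table averaged at least 0.5 FPKM in its higher group, so none could be at 0 in all libraries. The keratins and DCN moved with the titles, as do the results below, and their part in them was not tested.

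The codon that defines the family is shown for the 6 selenoprotein genes among the 10, with the codon of SEPHS1 that aligns with that of SEPHS2. Sequences are coding strand, from GENCODE 29 transcripts, with the selenocysteine codon TGA in capitals.
SEPHS2: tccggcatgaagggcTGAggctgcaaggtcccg
SEPHS1: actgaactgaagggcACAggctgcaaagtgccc
SELENOW: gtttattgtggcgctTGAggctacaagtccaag
SELENOT: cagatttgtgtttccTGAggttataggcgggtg
SELENOF: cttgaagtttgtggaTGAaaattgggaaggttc
SELENOK: ccaatggctggtggaTGAggaaggtaa
SELENOS: ccgtcatctggcggaTGAggctaa

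SEPHS2 has its TGA at codon 60 of 448, and SEPHS1 has ACA, a threonine codon, at the aligned codon 29 of 392. The translated paralogs were identical at 75.2% of 391 aligned positions. In SELENOW (codon 13 of 87) and SELENOT (codon 49 of 195) the TGA lies in the first part of the frame, and in SELENOF it lies at codon 96 of 165. In SELENOK (codon 92 of 94) and SELENOS (codon 188 of 189) it stands just before the stop codon that ends the sequence shown. SEPSECS, SECISBP2 and EEFSEC have no such codon in the transcripts used.

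In the SPIN1 libraries, SEPHS2, SECISBP2 and SELENOS were lower, and none of the 10 genes was higher past the test. SEPHS2 fell to 71.4% of its mean in the NC libraries, SECISBP2 to 62.3% and SELENOS to 76.0%. The differences were tested with limma on log2(FPKM + 1) over all 11061 genes that passed the filter, with Benjamini-Hochberg adjustment and a threshold of 0.05. The test called 3 of the 10 genes, where 27.6% of all tested genes were called, so the share of members called was close to the background. By direction, 3 of 10 were lower against 10.3% of all genes, and 0 of 10 were higher against 17.3%. At an unadjusted limma p under 0.05, 2 members were higher (SELENOK and SELENOW) and 4 lower. Of all 11061 genes, 2693 were higher and 1755 lower by that measure. The background by direction depended on scaling. After median scaling 1638 genes were higher and 1439 lower, and after quantile normalization 1596 and 1570, with 4 members lower in each. The median difference was -0.05 over the 10 genes and 0.05 over all genes tested, and the median absolute difference was 0.27 in both.

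**Figure D1:**
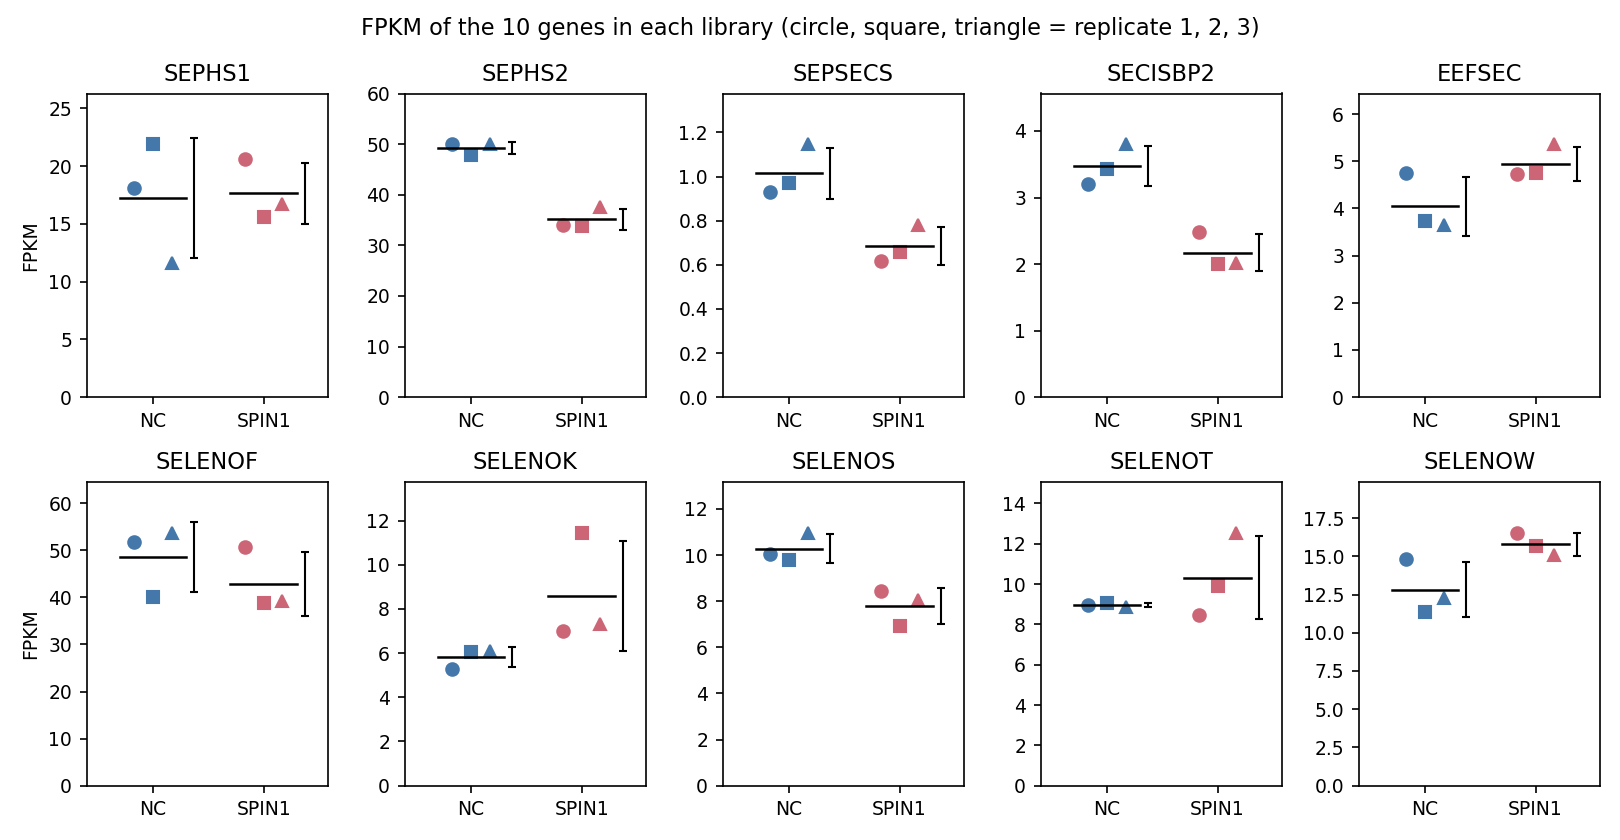
FPKM (vertical axis, from 0, a scale for each gene) of each of the 10 genes in the 3 NC libraries (blue) and the 3 SPIN1 libraries (red), with the group mean as a line and the SD as a bar beside it. The groups are apart for SEPHS2, SEPSECS, SECISBP2 and SELENOS, lower in SPIN1, and for SELENOK and SELENOW, higher in SPIN1, and they overlap for the other 4.

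SEPHS2 (ENSG00000179918.18_3, hg19 chromosome 16, 30454952 to 30457502, minus strand) was the most abundant of the synthesis genes. It was at 50.0, 47.9 and 50.0 FPKM in NC libraries 1 to 3 and at 34.1, 33.9 and 37.6 FPKM in SPIN1 libraries 1 to 3. All 3 SPIN1 libraries lay under all 3 NC libraries, with a gap wider than the spread within either group. The means were 49.3 ± 1.19 and 35.2 ± 2.09 FPKM (SD, n = 3 each), 1.40-fold lower. In limma's fit the log2 difference was -0.48 (SE 0.08, 95% interval -0.67 to -0.28, limma adjusted p = 0.00757), and it passed whichever of the 6 libraries was left out (limma adjusted p 0.0142 to 0.0355). In bulk RNA, a lower level in each cell and fewer cells with the transcript cannot be told apart.

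SEPHS1 (ENSG00000086475.14_2, hg19 chromosome 10, 13359424 to 13390298, minus strand), the paralog without selenocysteine, is essential in mammals but does not make selenophosphate from selenide. It was at 18.1, 21.9 and 11.7 FPKM in NC libraries 1 to 3 and at 20.7, 15.6 and 16.7 FPKM in SPIN1 libraries 1 to 3. The range of the NC libraries enclosed all 3 SPIN1 libraries, and the means were 17.2 ± 5.19 and 17.7 ± 2.65 FPKM (SD, n = 3 each). Its log2 difference of 0.07 (95% interval -0.48 to 0.62, limma adjusted p = 0.852) changed sign with the scaling, at -0.0044 after median scaling, and the interval holds the difference seen for SEPHS2. GENCODE 29 names 4 pseudogenes of SEPHS1 and 1 of SEPHS2, and how the authors divided reads among such copies is unknown, so the levels of both are uncertain in that respect.

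The ratio of SEPHS1 to SEPHS2 within a library does not depend on how libraries are scaled. It was 0.363, 0.457 and 0.233 in the NC libraries and 0.606, 0.462 and 0.444 in the SPIN1 libraries. The highest NC library lay between the SPIN1 libraries. The difference of 0.56 on the log2 scale had a two-sided exact permutation p = 0.2, where 3 against 3 libraries cannot give less than 0.1, so a difference in response between the paralogs was not shown.

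SEPSECS (ENSG00000109618.11_2, hg19 chromosome 4, 25121636 to 25162064, minus strand), the last enzyme of selenocysteine synthesis, was the least abundant of the 10. It was at 0.928, 0.972 and 1.15 FPKM in NC libraries 1 to 3 and at 0.617, 0.657 and 0.780 FPKM in SPIN1 libraries 1 to 3. The groups did not overlap, and the means were 1.02 ± 0.116 and 0.685 ± 0.0853 FPKM (SD, n = 3 each), a ratio of 0.674. Limma's log2 difference of -0.26 (SE 0.09) missed the threshold (limma adjusted p = 0.0731). On log2(FPKM + 1) a gene at this level shows less than its ratio. With a pseudocount of 0.1 the difference was -0.51 and still missed (limma adjusted p = 0.0777). All 6 fits without 1 library missed as well (limma adjusted p 0.0835 to 0.210). SEPSECS was past the threshold after median scaling (limma adjusted p = 0.0364), quantile normalization (0.0166) and with weights per library (0.0130). A filter at a mean of at least 2 FPKM left it out.

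SECISBP2 (ENSG00000187742.14_2, hg19 chromosome 9, 91933421 to 91974577, plus strand), the reader of the insertion element, was at 3.20, 3.43 and 3.80 FPKM in NC libraries 1 to 3 and at 2.49, 2.00 and 2.02 FPKM in SPIN1 libraries 1 to 3. The groups did not overlap, and the means were 3.48 ± 0.302 and 2.17 ± 0.277 FPKM (SD, n = 3 each), 1.60-fold lower. Limma gave a log2 difference of -0.50 (SE 0.11, 95% interval -0.77 to -0.23, limma adjusted p = 0.0191). The call was lost without SPIN1 library 2 (limma adjusted p = 0.0695), SPIN1 library 3 (0.0551), NC library 2 (0.0668) or NC library 3 (0.0723), and the alternatives together gave 0.00128 to 0.0723.

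SECISBP2L (ENSG00000138593.8_2, hg19 chromosome 15, 49280673 to 49338760, minus strand) is the paralog of SECISBP2, with 33.2% identity over 838 aligned positions. It was at 7.22, 8.19 and 8.65 FPKM in NC libraries 1 to 3 and at 8.20, 8.60 and 11.6 FPKM in SPIN1 libraries 1 to 3, and did not pass (log2 difference 0.20, limma adjusted p = 0.348). The ratio of SECISBP2 to SECISBP2L was 0.444, 0.419 and 0.440 in the NC libraries and 0.303, 0.232 and 0.174 in the SPIN1 libraries. All 3 ratios of the second group lay under the first, with a log2 difference of -0.91 and a two-sided exact permutation p = 0.1, the smallest that 3 against 3 libraries allow.

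**Figure D2:**
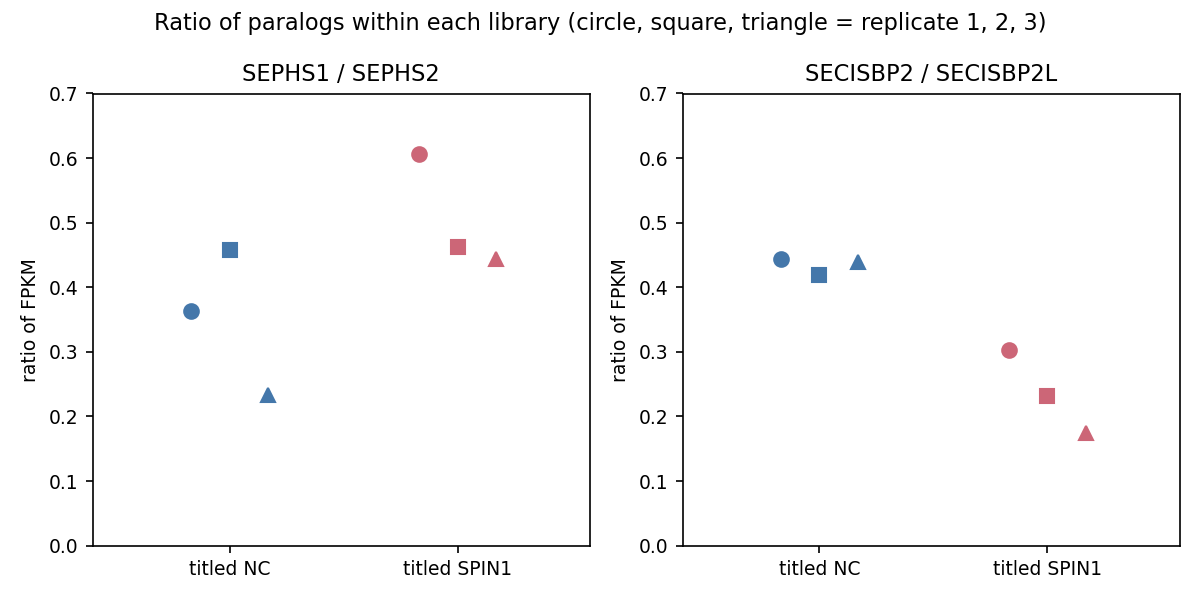
Ratio of FPKM (vertical axis, from 0) of SEPHS1 to SEPHS2 (left) and of SECISBP2 to SECISBP2L (right) in each NC library (blue) and each SPIN1 library (red). The groups overlap on the left, and on the right the SPIN1 libraries (0.174 to 0.303) lie under the NC libraries (0.419 to 0.444).

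EEFSEC (ENSG00000132394.10_2, hg19 chromosome 3, 127872297 to 128127489, plus strand), the elongation factor for selenocysteine, was at 4.76, 3.73 and 3.65 FPKM in NC libraries 1 to 3 and at 4.73, 4.76 and 5.36 FPKM in SPIN1 libraries 1 to 3. NC library 1 was level with SPIN1 libraries 1 and 2, so the groups overlapped. The means were 4.04 ± 0.619 and 4.95 ± 0.360 FPKM (SD, n = 3 each), with a log2 difference of 0.24 (95% interval -0.05 to 0.54, limma adjusted p = 0.188). EEFSEC passed with weights per library (limma adjusted p = 0.0291). In GENCODE 29 the gene overlaps RUVBL1 on the opposite strand. The libraries were strand-specific, but it is unknown whether the counting used the strand.

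Besides SEPHS2, the selenoprotein called was SELENOS (ENSG00000131871.14_2, hg19 chromosome 15, 101811022 to 101817705, minus strand). It is an ER membrane protein that recruits the ATPase VCP to the machinery exporting misfolded proteins. It was at 10.1, 9.77 and 11.0 FPKM in NC libraries 1 to 3 and at 8.42, 6.94 and 8.05 FPKM in SPIN1 libraries 1 to 3. The groups did not overlap, and the means were 10.3 ± 0.629 and 7.80 ± 0.773 FPKM (SD, n = 3 each), 1.32-fold lower. Its log2 difference of -0.36 (SE 0.11, 95% interval -0.61 to -0.10) passed narrowly (limma adjusted p = 0.0478). It was lost in each fit without 1 library other than the one without SPIN1 library 1 (0.0394): without SPIN1 library 2 (limma adjusted p = 0.139), SPIN1 library 3 (0.0849), and NC libraries 1 (0.0938), 2 (0.110) and 3 (0.152). The alternatives together gave 0.00442 to 0.152.

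SELENOK (ENSG00000113811.10_2, hg19 chromosome 3, 53918437 to 53926015, minus strand), an ER membrane protein that works with the palmitoyltransferase ZDHHC6, stood the other way. It was at 5.28, 6.07 and 6.11 FPKM in NC libraries 1 to 3 and at 6.99, 11.5 and 7.32 FPKM in SPIN1 libraries 1 to 3. The groups did not overlap, but SPIN1 library 2 was well above the other libraries of its title. The means were 5.82 ± 0.468 and 8.59 ± 2.49 FPKM (SD, n = 3 each), with a log2 difference of 0.46 (95% interval 0.02 to 0.90) that did not pass (limma adjusted p = 0.110). It was 0.26 without SPIN1 library 2, and it passed with weights per library (0.72, limma adjusted p = 0.00648). GENCODE 29 names 3 pseudogenes of SELENOK, which makes its level uncertain as for SEPHS1.

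SELENOT (ENSG00000198843.12_3, hg19 chromosome 3, 150320662 to 150348232, plus strand), a thioredoxin-like oxidoreductase of the ER, was at 8.97, 9.06 and 8.89 FPKM in NC libraries 1 to 3 and at 8.47, 9.92 and 12.6 FPKM in SPIN1 libraries 1 to 3. The NC libraries were nearly equal, and the SPIN1 libraries lay on both sides of them. The log2 difference was 0.17 (95% interval -0.17 to 0.51, limma adjusted p = 0.428). SELENOT has 2 named pseudogenes and overlaps SERP1 on the opposite strand.

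SELENOF (ENSG00000183291.15_4, hg19 chromosome 1, 87328128 to 87380107, minus strand), a partner of the glycoprotein folding sensor UGGT, was at 51.8, 40.1 and 53.8 FPKM in NC libraries 1 to 3 and at 50.7, 38.8 and 39.2 FPKM in SPIN1 libraries 1 to 3. Each group held low and high libraries and the groups overlapped (48.6 ± 7.39 against 42.9 ± 6.75 FPKM, SD, n = 3 each). The log2 difference was -0.18 (95% interval -0.55 to 0.20, limma adjusted p = 0.445). The summed level of the 4 ER selenoproteins, most of it SELENOF, was 65.0 to 79.7 FPKM in the NC libraries and 67.1 to 74.6 FPKM in the SPIN1 libraries.

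SELENOW (ENSG00000178980.14_3, hg19 chromosome 19, 48281829 to 48287943, plus strand), a small cytosolic redox protein, was at 14.8, 11.4 and 12.3 FPKM in NC libraries 1 to 3 and at 16.6, 15.7 and 15.1 FPKM in SPIN1 libraries 1 to 3. The groups did not overlap, although NC library 1 came close to the lowest SPIN1 library. The means were 12.8 ± 1.79 and 15.8 ± 0.735 FPKM (SD, n = 3 each), with a log2 difference of 0.29 (95% interval 0.01 to 0.56, limma adjusted p = 0.116). SELENOW passed without NC library 1, the library whose SPIN1 level went against its title (log2 difference 0.39, limma adjusted p = 0.0461), and with weights per library (limma adjusted p = 0.00985). GENCODE 29 names 1 pseudogene of SELENOW.

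**Figure D3:**
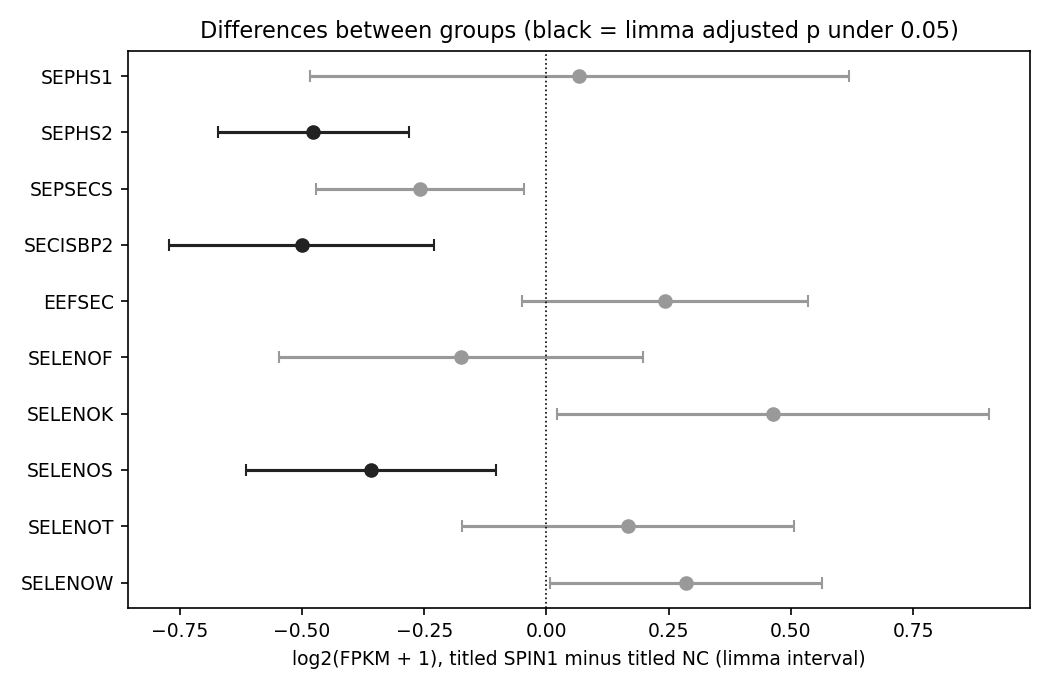
Difference of log2(FPKM + 1) between the SPIN1 libraries and the NC libraries (horizontal axis) for each of the 10 genes, with the 95% interval from limma. SEPHS2, SECISBP2 and SELENOS, in black, passed at an adjusted p under 0.05, and the other 7 are grey.

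Over the 10 genes, groups did not overlap in 6, of which 4 were lower and 2 higher, where 46.0% of all tested genes had groups apart, 18.8% lower and 27.2% higher. In size the differences were ordinary: 25.6% of all tested genes had a larger absolute log2 difference than SECISBP2, 27.6% a larger one than SEPHS2 and 28.5% a larger one than SELENOK. Without NC library 1 the calls were SEPHS2 and SECISBP2, lower, and SELENOW, higher. Weights per library gave the most calls, 4 lower (SEPHS2, SEPSECS, SECISBP2 and SELENOS) and 3 higher (EEFSEC, SELENOK and SELENOW).

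In level, which FPKM gives per length, SEPHS2 and SELENOF led in both groups, followed by SEPHS1 and SELENOW, with EEFSEC, SECISBP2 and SEPSECS last. In the NC libraries the ranges of SEPHS2 and SELENOF overlapped, whereas in the SPIN1 libraries the lowest SELENOF (38.8 FPKM) lay above the highest SEPHS2 (37.6 FPKM). SEPHS1 and SELENOW overlapped in both groups. SELENOS ranked above SELENOT and SELENOK in the NC libraries, with no overlap between neighbours. It ranked below both in the SPIN1 libraries, where SELENOT overlapped SELENOK and SELENOK overlapped SELENOS. EEFSEC and SECISBP2 overlapped in the NC libraries and were apart in the SPIN1 libraries.

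The other genes that supply selenium or take part in decoding were then counted from a list of 13, of which 12 were tested. Of these, 1 was lower (SARS), 1 was higher (EIF4A3) and 10 did not pass, a share called under the 27.6% of all tested genes (10.3% lower, 17.3% higher). The median difference of the list was 0.15. SARS (current symbol SARS1), the seryl-tRNA synthetase that charges the selenocysteine transfer RNA with serine as well as serving ordinary serine codons, was at 119, 119 and 124 FPKM in NC libraries 1 to 3 and at 46.3, 44.4 and 46.2 FPKM in SPIN1 libraries 1 to 3. The groups lay far apart, at 120 ± 2.96 and 45.6 ± 1.08 FPKM (SD, n = 3 each), 2.64-fold lower (log2 difference -1.38, SE 0.07, limma adjusted p = 0.000258). EIF4A3, an exon junction helicase that limits SECISBP2 binding on some selenoprotein messages, was at 17.7, 18.7 and 19.2 FPKM against 27.3, 26.0 and 29.2 FPKM (log2 difference 0.55, SE 0.09, limma adjusted p = 0.00589). Both calls held in every fit without 1 library.

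Of 19 further selenoprotein genes 13 were tested and limma called 0 in either direction, where 27.6% of all tested genes were called. At an unadjusted p under 0.05 the count was also 0, against 2693 higher and 1755 lower of all 11061, and the median difference was -0.03. Several of these genes were noisy, so the 0 does not show equal levels. DIO2 had the largest difference, 1.47 (SE 0.76, limma adjusted p = 0.201), and its groups did not overlap. It was at 1.85 FPKM in NC library 1 and at 18.8 and 19.4 FPKM in NC libraries 2 and 3. The SE was 0.70 for GPX1 and 0.65 for SELENON. The genes with the smallest adjusted p were SELENOO, a mitochondrial AMP-transferring enzyme, and TXNRD1, the cytosolic thioredoxin reductase. SELENOO was at 23.6, 20.1 and 16.4 FPKM in NC libraries 1 to 3 and at 18.2, 14.4 and 13.9 FPKM in SPIN1 libraries 1 to 3 (log2 difference -0.34, limma adjusted p = 0.165). TXNRD1 was at 47.8, 15.4 and 56.5 FPKM against 23.3, 10.1 and 16.2 FPKM (log2 difference -1.11, SE 0.52, limma adjusted p = 0.167). The groups overlapped in both genes. TXNRD1 passed without NC library 2 (log2 difference -1.67, limma adjusted p = 0.0292), and SELENOO passed with weights per library (log2 difference -0.39, limma adjusted p = 0.0239).

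The ER proteins that SELENOS, SELENOK and SELENOF work with were counted from a list of 16, all tested. Of these, 4 were lower (HERPUD1, OS9, SEL1L and UBE2J1), 2 were higher (VCP and UFD1) and 10 did not pass, with a median difference of -0.22. Of all tested genes 10.3% were lower and 17.3% higher, 27.6% together. HERPUD1, an ER-stress-induced scaffold of the export machinery, was at 19.8, 18.1 and 19.2 FPKM in NC libraries 1 to 3 and at 15.6, 10.7 and 10.0 FPKM in SPIN1 libraries 1 to 3 (log2 difference -0.64, SE 0.16, limma adjusted p = 0.0301). SEL1L, the adaptor of the ubiquitin ligase SYVN1, was at 8.65, 10.7 and 11.2 FPKM against 6.19, 6.78 and 8.01 FPKM (log2 difference -0.48, limma adjusted p = 0.0413). Both were lower in all 3 libraries.

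The lectin OS9, which delivers misfolded glycoproteins, differed by -0.33 (limma adjusted p = 0.0373) and the ER ubiquitin-conjugating enzyme UBE2J1 by -0.31 (limma adjusted p = 0.0443). VCP, the ATPase that SELENOS recruits, was at 50.3, 51.2 and 53.9 FPKM in NC libraries 1 to 3 and at 66.6, 60.4 and 65.0 FPKM in SPIN1 libraries 1 to 3 (log2 difference 0.30, SE 0.08, limma adjusted p = 0.0341). Its cofactor UFD1 differed by 0.36 (limma adjusted p = 0.0454). SELENOS and VCP thus stood in opposite directions in these libraries. None of the 6 calls was firm: without NC library 2, NC library 3 or SPIN1 library 2, 0 of the 6 were left, without each other library 1 or 2 were left, and those of VCP and UFD1 were lost after median scaling (limma adjusted p = 0.0800 and 0.0655).

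**Figure D4:**
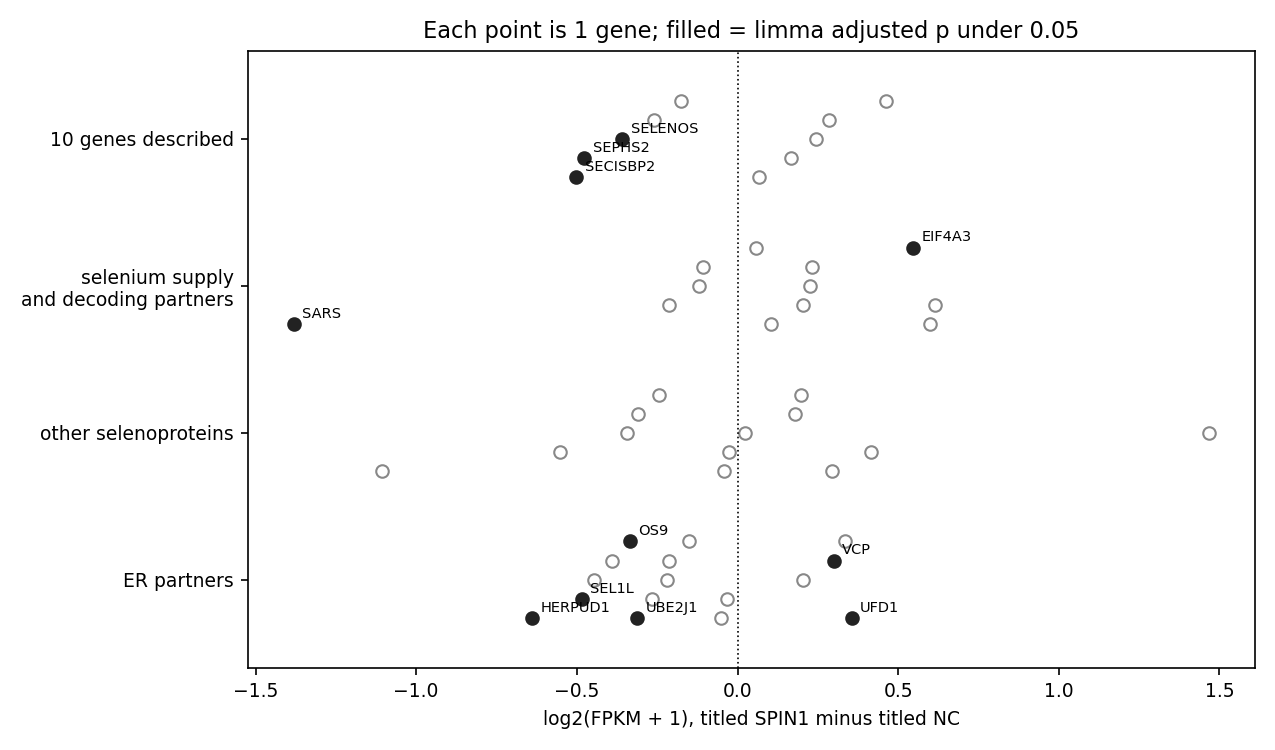
Difference of log2(FPKM + 1), titled SPIN1 minus titled NC (horizontal axis), of each tested gene in the 10 genes described and the 3 lists, where vertical offsets within a row only separate points. Filled points, which are named, passed at a limma adjusted p under 0.05: 3 of the 10 genes, 2 of 12 supply and decoding genes, 0 of 13 other selenoproteins and 6 of 16 ER partners.

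The promoters of the 10 genes were searched for short motifs. RefSeq start sites on GRCh38.p14 gave 11 promoters of 300 bases (250 before and 50 after the start) for 9 of the 10 genes. The letters searched on both strands were TGATGNAA (the amino acid response element bound by ATF4), TGACNNNGC (the antioxidant response element bound by NRF2) and CCAAT followed after 9 bases by CCACG (the ER stress element). TGATGNAA was in 1 member, SEPHS1, and in 4.46% of all 27303 genes with promoters. TGACNNNGC was in 2 members, SECISBP2 and SELENOK, and in 16.1% of all genes. The ER stress element was in 0 of the 9 and in 0.09% of all genes. Letters that rare would be missing from nearly any 9 genes, and variants of the element were not searched. The 0 therefore does not show that a member lacks such an element. A match describes letters only.

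The 250 bases upstream of the start are shown for the paralogs SEPHS1 (chr10:13348294-13348543, GRCh38.p14, minus strand) and SEPHS2 (chr16:30445875-30446124, GRCh38.p14, minus strand), 5' to 3' on the gene's strand, and a shorter window around a match is shown for SELENOK (chr3:53891943-53892001, GRCh38.p14, minus strand) and SECISBP2 (chr9:89318662-89318720, GRCh38.p14, plus strand), with matches in capitals. SEPHS2 holds none of these letters, and SEPHS1 holds TTGCATCA, the reverse complement of the first motif. SECISBP2 holds the antioxidant letters a second time nearer the start, as GCGATGTCA, the reverse complement. Whether any match bears on the levels was not tested.
SEPHS1: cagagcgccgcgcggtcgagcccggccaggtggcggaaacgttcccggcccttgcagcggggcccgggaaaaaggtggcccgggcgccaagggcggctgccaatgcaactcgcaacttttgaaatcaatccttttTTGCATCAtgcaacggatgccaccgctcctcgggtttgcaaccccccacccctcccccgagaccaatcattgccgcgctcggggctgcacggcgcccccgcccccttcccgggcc
SEPHS2: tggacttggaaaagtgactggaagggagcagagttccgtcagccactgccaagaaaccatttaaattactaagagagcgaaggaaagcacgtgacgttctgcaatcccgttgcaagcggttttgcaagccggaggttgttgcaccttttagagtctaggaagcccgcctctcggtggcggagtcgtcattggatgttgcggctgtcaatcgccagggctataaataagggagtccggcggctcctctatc
SELENOK: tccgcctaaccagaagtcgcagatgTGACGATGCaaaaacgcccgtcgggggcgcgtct
SECISBP2: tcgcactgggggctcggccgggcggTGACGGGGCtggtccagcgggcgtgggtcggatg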

How the data were processed

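Poly(A) RNA was made into strand-specific libraries (KAPA kit, dUTP) with paired-end NovaSeq sequencing, per the labels' protocols. Per the submitters' processing notes the tools were FastQC, cutadapt, HISAT2 and StringTie, without versions or settings, and the build was hg19. The authors deposited FPKM per gene, per the file headers, for 11314 protein-coding genes with coordinates on hg19. FPKM is relative to all fragments of a library, so a rise of abundant genes lowers the others. No counts were used, so the depth is unknown and the precision is the spread over 3 libraries per group.

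The 11061 genes averaging at least 0.5 FPKM (253 did not) were fitted as log2(FPKM + 1) with limma 3.58.1 (trend, robust; statmod 1.5.0) in R 4.3.3, group as the only term. Benjamini-Hochberg adjustment covered every tested gene, with a threshold of 0.05 and 95% intervals. Differences are titled SPIN1 minus titled NC on that scale, folds are ratios of mean FPKM. Named were all 10 members, SPIN1, ALKBH3, and in each of the 3 context lists up to 6 called genes, or the 2 with the smallest adjusted p. SECISBP2L was added for its ratio, DIO2, GPX1 and SELENON for their spread, and GPX4 for its part in ferroptosis. The members and lists were chosen with earlier results of these data known. The code was tested on simulated data. Alternatives were another pseudocount, filter, scaling or moderation, library weights, the replicate number as a block, and leaving out each library. Codons and alignments came from GENCODE 29 (Biopython 1.88), promoters from RefSeq (GRCh38.p14). Figures used matplotlib 3.10.9.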

Additional observations from a re-analysis of the deposited data

How the results depend on the processing

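Of 149 refits of the 10 genes, 126 kept the direction and the side of the threshold, 10 lost a call (the 9 of SECISBP2 and SELENOS given above and that of SELENOS without both libraries numbered 1, limma adjusted p = 0.0659), 8 gained one and 5 reversed. The reversals were all of SEPHS1: -0.0044 after median scaling, -0.0089 after quantile normalization, -0.19 with weights per library, and -0.18 to 0.25 with 1 library left out. The replicate number as a block left the members at 3 lower and 0 higher. Same-numbered libraries correlated in their deviations at 0.055 to 0.216, over 0.1 in 2 of 3 pairs, and 5 of 6 libraries correlated best with their own number. The main fit did not pair them, and whether the numbers mark libraries handled together is unknown. With the block, 2 other selenoproteins were lower (SELENOO, limma adjusted p = 0.0418, and TXNRD1, 0.0415), and 2 supply and decoding genes and 1 ER partner were higher.

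With weights per library 3106 genes were higher and 2304 lower, and the counts were 3 members higher, 1 other selenoprotein lower, 4 supply and decoding genes higher and 2 lower, and 4 ER partners higher and 7 lower. Median scaling and quantile normalization left 0 ER partners higher, and quantile normalization gave 2 supply and decoding genes lower. With 1 library left out, genes higher ran from 1139 to 2042 and lower from 635 to 1267, members higher from 0 to 1 and lower from 1 to 3, other selenoproteins lower from 0 to 1, supply and decoding genes higher from 1 to 3, and ER partners from 0 to 1 both higher and lower. Leaving out both libraries numbered 1, chosen after seeing the data, gave 2 members lower (SEPHS2 and SECISBP2), 1 member higher (SELENOW), 1 other selenoprotein higher and 1 lower, 2 supply and decoding genes higher and 0 ER partners higher. The cause of these changes was not tested. Fits that leave out libraries also rest on fewer samples. Both paralog ratios kept their direction, at 0.29 to 0.78 for SEPHS1 to SEPHS2 and -1.11 to -0.71 for SECISBP2 to SECISBP2L with 1 library left out.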
